A study of Homo sapiens with 12 samples.

Results

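The 10 long noncoding RNAs (lncRNAs) followed here, known from work on stress and senescence, are NEAT1, MALAT1, PURPL, LINC-PINT, TP53TG1, PVT1, GAS5, MEG3, MIR31HG and MIR22HG. They were followed through WI-38 fibroblasts made senescent with etoposide and given siRNAs against the receptor TrkB or against its ligand BDNF. They were taken as a list of names, chosen with earlier results of these data known. All 10 were found among the 57773 genes counted and passed the filter on low counts, which left 21518 genes to test. In senescent cells LINC-PINT rose 4.64-fold, PURPL 4.32-fold and MIR31HG 3.29-fold over proliferating cells, NEAT1 rose 1.77-fold and PVT1 1.47-fold, and MIR22HG fell. TP53TG1 was lower by a small amount that did not pass under every setting. Silencing NTRK2, the gene of TrkB, gave higher MEG3, MIR22HG and MALAT1 and lower LINC-PINT and MIR31HG. The MALAT1 and MIR31HG calls did not pass under every setting. Between the siRNAs, 6 of the 10 differed, against 16.7% of all genes tested. MEG3 was 2.25-fold higher under NTRK2 silencing than under BDNF silencing.

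WI-38 cells are human diploid lung fibroblasts, which the authors also grew until they stopped dividing. All 12 libraries came from transfected cells, 3 in each of 4 groups: proliferating cells given a non-targeting control siRNA (siCtrl) and the vehicle DMSO for 8 days, and cells given 50 µM etoposide, a topoisomerase poison that breaks DNA, for 8 days with siCtrl, with siNTRK2 or with siBDNF. Each siRNA was a pool against 1 target, used at 25 nM, so that a target was tested with a single reagent, and proliferating cells with siNTRK2 or siBDNF were not analysed here. Polyadenylated RNA was sequenced and reads were counted per gene. Nothing in the labels says whether the 3 libraries of a group came from separate cultures. The authors state for their experiments in general that each was repeated independently, at least 3 times, with its groups run together. They do not say this of the RNA libraries by name. The p-values therefore measure only the spread between these libraries, which may be technical.

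A lncRNA acts as RNA, at its own locus, on chromatin elsewhere, or as a scaffold for proteins, and many lncRNA genes also carry small RNAs in their introns or exons. DNA damage activates the transcription factor p53, which stops the cell cycle through targets such as CDKN1A, and several of the RNAs followed here, PURPL, LINC-PINT and TP53TG1 among them, were described as p53 targets. Others build nuclear bodies (NEAT1 in paraspeckles, MALAT1 in nuclear speckles), are expressed from 1 parental allele (MEG3), host small nucleolar RNAs (GAS5) or microRNAs (MIR31HG, MIR22HG), or lie beside the MYC gene (PVT1).

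The promoters of the 3 RNAs with the largest rise in senescence and of MEG3, the RNA that differed most between the siRNAs, are shown because they differ in make-up. They are RefSeq windows (GRCh38.p14) from 250 bases before to 50 bases after the start site, placed by exact match on GRCh37, the build of the counts, at chr5:27472149-27472448 (plus strand, within the annotated PURPL gene), chr7:130794635-130794934 (minus strand, LINC-PINT), chr9:21559748-21560047 (minus strand, MIR31HG) and chr14:101292195-101292494 (plus strand, within the annotated MEG3 gene). LINC-PINT has 4 such windows and MEG3 has 3, of which 1 each is printed. Capitals mark the motif matches described after them.
PURPL: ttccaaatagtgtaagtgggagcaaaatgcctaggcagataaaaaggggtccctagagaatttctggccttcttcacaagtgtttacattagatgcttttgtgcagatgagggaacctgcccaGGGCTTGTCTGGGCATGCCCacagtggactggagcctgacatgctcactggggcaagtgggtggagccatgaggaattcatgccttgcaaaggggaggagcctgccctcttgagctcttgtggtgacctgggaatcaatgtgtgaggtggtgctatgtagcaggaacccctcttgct
LINC-PINT: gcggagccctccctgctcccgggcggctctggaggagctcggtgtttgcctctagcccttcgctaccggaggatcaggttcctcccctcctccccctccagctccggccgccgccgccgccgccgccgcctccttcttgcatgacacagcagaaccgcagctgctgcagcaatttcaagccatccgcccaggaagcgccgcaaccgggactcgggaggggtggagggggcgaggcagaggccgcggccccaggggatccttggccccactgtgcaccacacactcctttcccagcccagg
MIR31HG: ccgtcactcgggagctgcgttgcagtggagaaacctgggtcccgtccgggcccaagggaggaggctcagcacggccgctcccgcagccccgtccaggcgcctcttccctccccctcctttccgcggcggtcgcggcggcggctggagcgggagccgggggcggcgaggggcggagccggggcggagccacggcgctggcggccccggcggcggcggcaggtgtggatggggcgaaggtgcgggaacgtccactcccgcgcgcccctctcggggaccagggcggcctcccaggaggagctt
MEG3: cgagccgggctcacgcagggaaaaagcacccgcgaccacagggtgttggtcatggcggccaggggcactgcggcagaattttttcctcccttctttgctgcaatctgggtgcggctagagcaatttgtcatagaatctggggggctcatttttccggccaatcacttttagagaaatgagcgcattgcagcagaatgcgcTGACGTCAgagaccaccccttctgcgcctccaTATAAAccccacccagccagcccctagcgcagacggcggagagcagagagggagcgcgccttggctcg

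Motifs were searched on both strands. The PURPL window held 2 p53 half-sites with no base between them, beginning 127 and 117 bases before the start site. A half-site alone occurred in 6.63% of 35116 RefSeq promoters of this length, and a pair with no base between in 0.0171%. The MEG3 window held a cyclic AMP response element (CRE, TGACGTCA) that began 50 bases before the start, a motif found in 1.85% of promoters, and a TATA box (TATAAA) that began 18 bases before it, found in 11.5%. The printed windows of LINC-PINT and MIR31HG held none of these, nor AP-1 (TGANTCA, in 7.71% of promoters) or an E-box (CACGTG, in 7.26%), and were rich in G and C, at 70.3% and 77.7% against a median of 58.7%. Another LINC-PINT window, at chr7:130598020-130598319 with 54.7% G and C, held AP-1 at 2 places and an E-box. The other windows of MEG3 held the same CRE and TATA box. A match describes the letters and is not evidence of binding. None of the printed matches overlap one another.

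MIR31HG and MIR22HG host microRNAs, which recognise targets through the seed, bases 2 to 8, in capitals below. The mature sequences are RefSeq's and lie on GRCh37 at chr9:21512157-21512177 (minus strand, inside MIR31HG) and, inside MIR22HG on the minus strand, at chr17:1617208-1617229 and chr17:1617246-1617267.
hsa-miR-31-5p: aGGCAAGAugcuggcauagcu
hsa-miR-22-3p: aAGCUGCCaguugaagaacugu
hsa-miR-22-5p: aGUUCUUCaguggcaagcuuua
The 3 seeds differ from one another. These libraries measured the host RNAs and not the mature microRNAs, and the annotated MIR31 gene itself had 0 counts over the 12 libraries.

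Totals ran from 31567912 to 72328151 counts per library, and 3 counts, taken as the smallest signal detected, corresponded to 0.0427 to 0.0916 normalized counts per 1000000 (CPM). The targeted genes followed the labels. NTRK2 had 7, 15 and 10 counts in senescent siCtrl libraries, 0 in each siNTRK2 library and 10, 23 and 29 with siBDNF. BDNF fell with siBDNF (log2 fold change -1.79, SE 0.049, edgeR adjusted p = 1.72e-18) and was higher with siNTRK2 than with siCtrl, at 203.0 to 206.0 against 157.0 to 169.0 CPM (log2 fold change 0.34, SE 0.046, edgeR adjusted p = 8.35e-06). All 10 fibroblast markers were above 1 CPM in every group, at a summed 32300 to 34200 CPM in proliferating and 23300 to 30200 CPM in senescent libraries, and all 5 epithelial markers were below 1 CPM. The 6 haematopoietic markers summed to 49.7 to 56.6 CPM in proliferating cells, 108.0 to 115.0 with siCtrl, 77.0 to 80.4 with siNTRK2 and 180.0 to 183.0 with siBDNF in senescent cells, nearly all of it CD68, a lysosomal protein, with at least 4 of the 6 below 1 CPM. The 4 endothelial markers measured summed to 75.2 to 78.0 CPM in proliferating and 24.6 to 40.9 CPM in senescent libraries, and the 4 smooth muscle markers to 412.0 to 468.0 and 259.0 to 389.0 CPM. Most of the endothelial sum was TEK (mean 75.5 CPM in proliferating and 32.8 CPM in senescent siCtrl cells). Of the 3 endothelial markers tested between these groups, 2 were higher, VWF among them (0.765 and 1.86 CPM), and 1 lower. Of the 4 smooth muscle markers, 1 was higher, CNN1 (51.0 and 83.6 CPM), and 1 lower, ACTA2 (379.0 and 287.0 CPM). The share of counts from mitochondrial genes was 1.6% to 1.99% in proliferating cells and 3.33% to 3.65% with siCtrl, 2.5% to 2.85% with siNTRK2 and 1.78% to 2.38% with siBDNF in senescent cells, so that the siBDNF libraries reached into the proliferating range. The part of these shifts in the results was not tested. In bulk RNA, fewer cells with an RNA and less of it per cell cannot be told apart. Within their groups, senescent siCtrl replicate 2, siNTRK2 replicate 2 and proliferating replicate 3 lay farthest from the others over all genes.

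Of the 10 RNAs, 7 passed an adjusted p under 0.05 between senescent and proliferating siCtrl cells, 5 higher and 2 lower. Over all genes tested 58.1% passed, 29.8% higher and 28.3% lower, so that the count for the 10 lies near the background. Their median log2 fold change was 0.36, against 0.03 over all genes. With a log2 fold change over 1 as well, 3 of the 10 were called higher, LINC-PINT, PURPL and MIR31HG, against 11.6% of all genes. Among the 3501 other lncRNA genes tested, 38.4% passed, 23.2% higher and 15.2% lower.

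With siNTRK2 against siCtrl in senescent cells, 3 of the 10 were higher and 2 lower, against a background of 21.1% of all genes (11.1% higher and 10.0% lower). With siBDNF, 1 was higher and 2 lower, against 20.5% (10.3% higher and 10.2% lower). These comparisons share the 3 senescent siCtrl libraries with each other and with the senescence comparison, so a shift in those libraries enters all of them. The direct comparison of siNTRK2 with siBDNF does not use them, and gave 4 higher and 2 lower, against 16.7% of all genes (8.84% higher and 7.86% lower). One of the 6, MEG3, also passed a log2 fold change of 1, as did 0.335% of all genes in that direction. The shares over all genes given here and for senescence are also the background for the counts of the gene lists below.

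**Figure D1:**
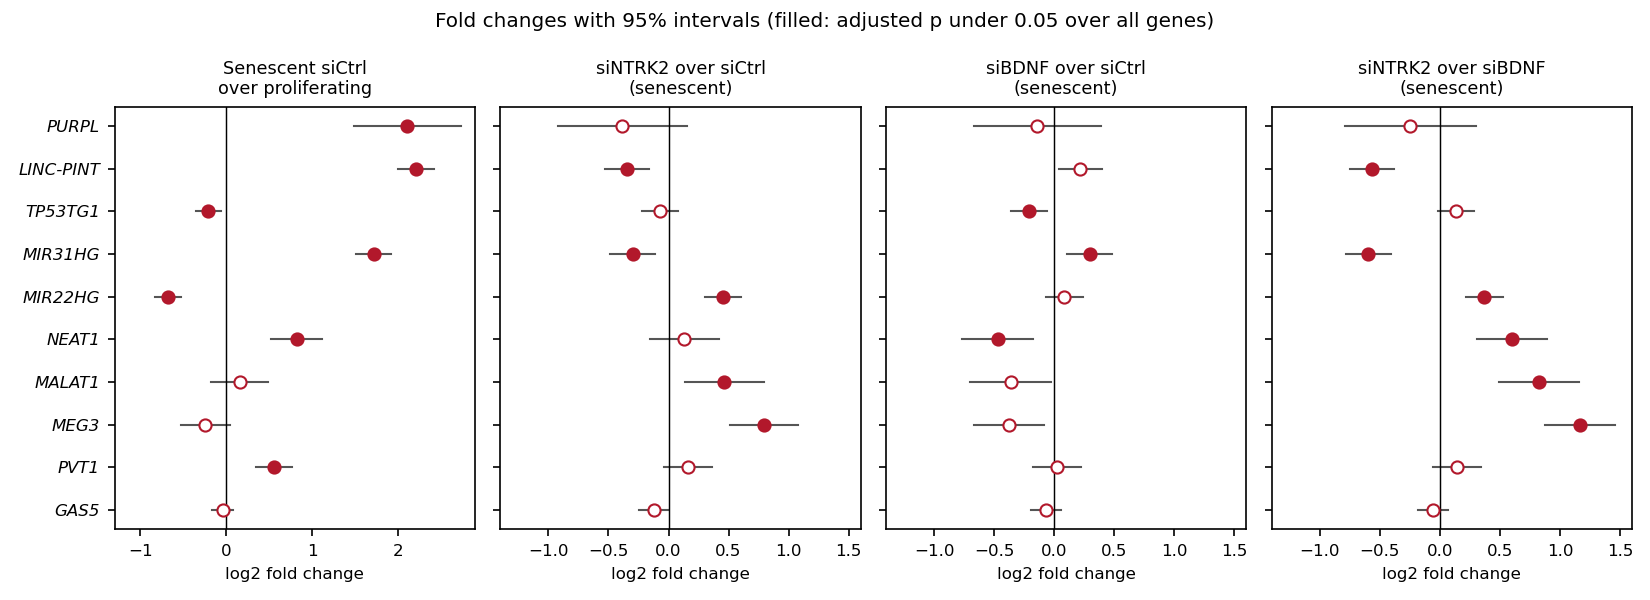
Log2 fold change of each of the 10 lncRNAs (points) with its 95% interval (lines) in 4 comparisons. Filled points passed an adjusted p under 0.05 over all 21518 genes. LINC-PINT, PURPL and MIR31HG lie farthest to the right in senescence (2.21, 2.11 and 1.72), and MEG3 in the comparison of siNTRK2 with siBDNF (1.17).

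PURPL, an RNA that restrains p53 activity, was scarce. It had 0.341, 0.313 and 0.162 CPM in the proliferating libraries (19, 22 and 6 counts) and 0.998, 1.27 and 1.42 CPM in the senescent siCtrl libraries (56, 74 and 82 counts). It had 1.1, 0.766 and 0.95 CPM with siNTRK2 and 1.22, 1.05 and 1.11 CPM with siBDNF. Every senescent library was above every proliferating one, and the 3 senescent groups overlapped. The log2 fold change in senescence was 2.11 (SE 0.30, edgeR adjusted p = 1.54e-06). It was 1.73 with siNTRK2 and 1.97 with siBDNF against the same proliferating libraries. Neither siRNA was called against siCtrl, at -0.39 with a 95% interval from -0.92 to 0.15 for siNTRK2 and -0.14 with an interval from -0.67 to 0.39 for siBDNF, intervals wide enough to hold changes of the size seen in other members.

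LINC-PINT, a p53-induced RNA that works with the Polycomb repressive complex, had 2.75, 2.39 and 2.38 CPM in proliferating cells and 11.2, 12.1 and 11.6 CPM in senescent siCtrl cells. With siNTRK2 the values were 9.2, 9.82 and 8.47 CPM, and with siBDNF 12.9, 14.5 and 13.2 CPM. No 2 groups overlapped, in the order proliferating, siNTRK2, siCtrl, siBDNF. The rise in senescence was 2.21 on the log2 scale (SE 0.10, edgeR adjusted p = 1.43e-15). The siNTRK2 libraries were lower than siCtrl by a log2 fold change of -0.35 (SE 0.088, edgeR adjusted p = 0.0057) and lower than siBDNF, at -0.57 (SE 0.088, edgeR adjusted p = 4.41e-05). The siBDNF level, 0.22 above siCtrl, did not pass (edgeR adjusted p = 0.0799), and passed when libraries were scaled by their totals (0.0287) or only those groups were fitted (0.0348). The offset for gene length and GC content took it to 0.03 (0.883) and the siNTRK2 difference to -0.53. Most of the induction was still present with siNTRK2, at a log2 fold change of 1.87 over proliferating cells.

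TP53TG1, an RNA first found as a p53-induced transcript, did not rise. It had 19.2, 19.5 and 19.6 CPM in proliferating cells, 18, 16.2 and 16.3 with siCtrl, 15.3, 17.4 and 15.5 with siNTRK2 and 14, 15.2 and 14.5 with siBDNF. Every proliferating library was above every senescent one, by a small margin. The log2 fold change with siCtrl was -0.21 (SE 0.072, edgeR adjusted p = 0.0152), and the call was lost without senescent siCtrl replicate 2 (adjusted p = 0.0607) or 3 (adjusted p = 0.0578) and with an offset for gene length and GC content (-0.06, adjusted p = 0.519). The siBDNF libraries were lower than siCtrl, at -0.21 (SE 0.073, edgeR adjusted p = 0.0446), with no overlap, a call lost in 5 of the 6 fits that left out 1 of these libraries (without siCtrl replicate 1 or 3 or any siBDNF replicate, adjusted p from 0.0572 to 0.228). Neighbouring levels in the order siCtrl, siNTRK2 and siBDNF were not told apart (edgeR adjusted p = 0.55 and 0.222).

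The rise of PURPL and LINC-PINT can be set beside the protein-coding targets of p53. Of 14 direct p53 target mRNAs, 13 rose in senescence and 0 fell, against 29.8% and 28.3% of all genes. They were led by the stress cytokine GDF15 (log2 fold change 2.52), the cell cycle inhibitor CDKN1A (1.62) and the ribonucleotide reductase subunit RRM2B (1.19), with a median of 0.60. With siNTRK2, 1 of the 14 was higher and 8 were lower, GDF15 at -0.62, CDKN1A at -0.50 and FDXR at -0.39. With siBDNF 6 were higher and 0 lower, and 11 were lower with siNTRK2 than with siBDNF. Of 8 proliferation mRNAs, all fell in senescence and all were higher with siNTRK2 than with siCtrl, MKI67 by a log2 fold change of 1.72. LINC-PINT and MIR31HG, but not PURPL, passed the test in the same direction as most of the p53 targets in the comparison of the siRNAs. That PURPL and LINC-PINT differ there was not tested.

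**Figure D2:**
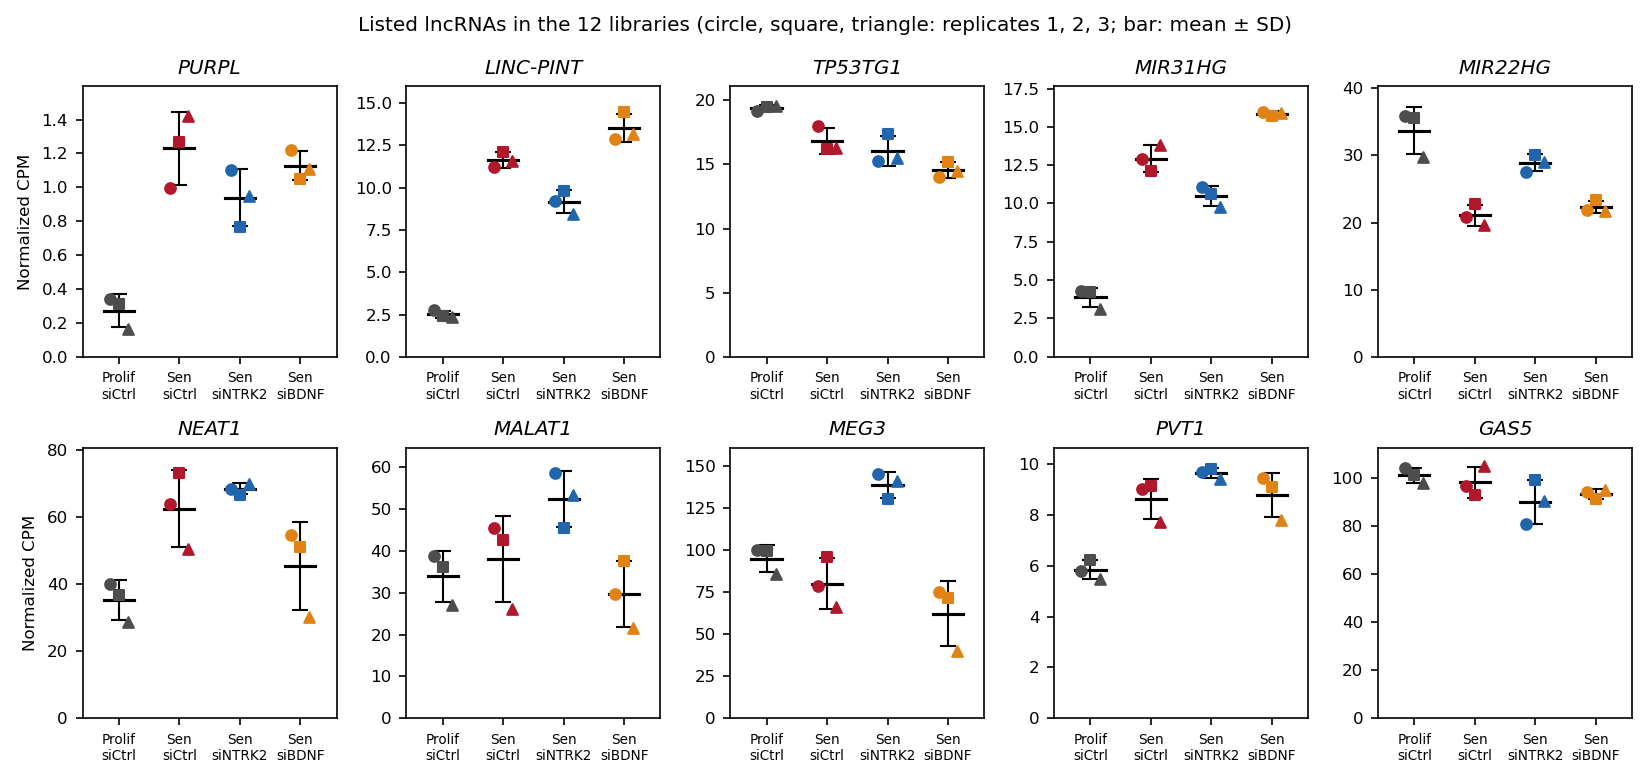
Normalized CPM (vertical axes, each from 0) of the 10 lncRNAs in each library (points, circle, square and triangle for replicates 1, 2 and 3), with the mean and SD of each group of 3 (bars). PURPL, LINC-PINT, MIR31HG and PVT1 (higher in senescence) and TP53TG1 (lower) separate proliferating from senescent libraries. The share of all genes that separate in this way was not measured, while 58.1% were called between senescent and proliferating siCtrl cells. MEG3 separates the siNTRK2 libraries (130.0 to 145.0 CPM) from the other 9.

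MIR31HG hosts miR-31 and lies in the region of the CDKN2A locus, whose product p16 holds senescent cells in arrest. CDKN2A is not its nearest protein-coding gene on either side. MIR31HG had 4.27, 4.2 and 3.14 CPM in proliferating cells and 12.9, 12.1 and 13.8 CPM in senescent siCtrl cells. It had 11.1, 10.6 and 9.8 CPM with siNTRK2 and 16, 15.7 and 15.9 CPM with siBDNF. The groups did not overlap, and were ordered as for LINC-PINT. The log2 fold change in senescence was 1.72 (SE 0.10, edgeR adjusted p = 1.67e-13). All 6 pairs of groups differed, the smallest differences being -0.30 for siNTRK2 against siCtrl (SE 0.091, edgeR adjusted p = 0.0199) and 0.30 for siBDNF against siCtrl (SE 0.089, edgeR adjusted p = 0.019). Between the siRNAs the difference was -0.59 (SE 0.091, edgeR adjusted p = 3.32e-05).

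The calls of MIR31HG against siCtrl were less secure than the comparison of the siRNAs. The siNTRK2 call was lost without siCtrl replicate 1 or 3 or siNTRK2 replicate 3 (adjusted p = 0.0572, 0.106 and 0.0929). The siBDNF call was lost without siCtrl replicate 1 or 2 or any 1 siBDNF replicate (0.0575 to 0.0772). An offset for gene length and GC content took the siBDNF difference to 0.08 (adjusted p = 0.621) and the siNTRK2 difference to -0.47.

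MIR22HG, which hosts miR-22, went the other way. It had 35.9, 35.5 and 29.7 CPM in proliferating cells and 20.8, 22.8 and 19.7 CPM in senescent siCtrl cells. With siNTRK2 it had 27.6, 30.1 and 29.0 CPM and with siBDNF 21.8, 23.4 and 21.7 CPM. The siNTRK2 libraries lay above both other senescent groups and reached into the proliferating range. The log2 fold change in senescence was -0.68 (SE 0.073, edgeR adjusted p = 1.47e-08), and with siNTRK2 it was 0.45 against siCtrl (SE 0.073, edgeR adjusted p = 6.54e-05). The remaining deficit of the siNTRK2 libraries against proliferating cells was -0.23 (edgeR adjusted p = 0.00939). The siBDNF and siCtrl levels were not told apart, at 0.08 with a 95% interval from -0.07 to 0.24.

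Of 16 other microRNA host genes tested, 3 were higher and 4 lower in senescence, against 29.8% and 28.3% of all genes. Their median log2 fold change was -0.17. The largest were MIR181A1HG (2.61), MIR503HG (-2.53), the host of the miR-424 and miR-503 cluster, and MIR155HG (-1.16), the host of miR-155. With siNTRK2 3 were higher and 0 lower, MIR503HG by 0.81, MIR23AHG by 0.74 and MIR100HG by 0.24. With siBDNF 0 were higher and 2 lower, CARMN at -1.24 and MIR4435-2HG at -0.21. Between the siRNAs 4 were higher with siNTRK2 and 1 lower.

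NEAT1 is the RNA core of paraspeckles, nuclear bodies that form under stress. The gene lies on chromosome 11 beside MALAT1, and MALAT1 and the long NEAT1 isoform lack the ordinary poly(A) tail by which these libraries were selected. How much of either RNA was captured is not known, and the NEAT1 isoforms could not be told apart. NEAT1 had 40.2, 36.9 and 28.7 CPM in proliferating cells and 63.9, 73.3 and 50.5 CPM in senescent siCtrl cells. It had 68.6, 66.8 and 70.1 CPM with siNTRK2 and 54.8, 51.3 and 30.4 CPM with siBDNF. The siCtrl and siNTRK2 libraries were all above the proliferating ones, while siBDNF replicate 3 fell within the proliferating range.

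In senescence NEAT1 rose by a log2 fold change of 0.82 (SE 0.14, edgeR adjusted p = 2.72e-05), and by 0.95 with siNTRK2 against the same proliferating libraries. With siBDNF the rise over proliferating cells was 0.35 (edgeR adjusted p = 0.0424) and the level was lower than with siCtrl, at -0.47 (SE 0.14, edgeR adjusted p = 0.0191) and than with siNTRK2 (0.60 higher with siNTRK2, SE 0.14, edgeR adjusted p = 0.00393). The siBDNF difference from siCtrl rested on single libraries: without siBDNF replicate 3 it was -0.24 (adjusted p = 0.166), without siCtrl replicate 2 it was -0.34 (0.117) and without siCtrl replicate 1 it was -0.46 (0.0669). It was also not called with DESeq2 (0.109). The siNTRK2 and siCtrl levels were not told apart (0.13, 95% interval from -0.16 to 0.42).

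The mRNAs of paraspeckle proteins were mostly lower in senescence. Of 17 tested mRNAs of paraspeckle proteins, 0 were higher and 16 lower, against 29.8% and 28.3% of all genes. Their median log2 fold change was -0.76. RBMX, a splicing regulator, had a log2 fold change of -1.24, as did SFPQ, which is needed to build the body. With siNTRK2 7 were higher and 0 lower than with siCtrl, by at most 0.35 (SMARCA4, then DAZAP1 at 0.28 and HNRNPR at 0.27), and with siBDNF 2 were higher and 2 lower.

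MALAT1, a nuclear speckle RNA, had 38.7, 36.1 and 27.0 CPM in proliferating cells and 45.4, 42.6 and 26.2 CPM in senescent siCtrl cells. With siNTRK2 it had 58.7, 45.4 and 53.4 CPM, and with siBDNF 29.8, 37.5 and 21.7 CPM. Proliferating, siCtrl and siBDNF libraries overlapped, and the siNTRK2 libraries lay above them, the lowest of them above the highest siCtrl library by less than the last digit given. The senescence difference was 0.16 with a 95% interval from -0.18 to 0.49. It was called without siCtrl replicate 3 (0.37, edgeR adjusted p = 0.0393). The siNTRK2 libraries were higher than siCtrl by 0.47 (SE 0.16, edgeR adjusted p = 0.0399), a call lost without siCtrl replicate 3 (0.26, adjusted p = 0.277), siNTRK2 replicate 1 (0.38, 0.144) or siNTRK2 replicate 3 (0.45, 0.0913), with DESeq2 (0.182) and with the length and GC offset (0.35, 0.083). The siNTRK2 level exceeded the siBDNF level by 0.83 (SE 0.16, edgeR adjusted p = 7.1e-04). The siBDNF difference from siCtrl was -0.36 and did not pass (edgeR adjusted p = 0.132), but passed without siCtrl replicate 3 (-0.57, 0.0109) or siBDNF replicate 2 (-0.59, 0.0223), with no filter (1.74e-06) and with the length and GC offset (0.021). P-values with no filter are not comparable with the others: NEAT1 in senescence had 0.805 (edgeR adjusted p = 2.44e-40) against 0.82 (2.72e-05) in the main fit.

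MEG3 is expressed from the maternal chromosome 14, in the imprinted cluster between DLK1 and DIO3, and restrains growth in part through p53. It had 99.8, 99.2 and 85.5 CPM in proliferating cells and 78.4, 95.8 and 65.9 CPM in senescent siCtrl cells. It had 145.0, 130.0 and 141.0 CPM with siNTRK2 and 75.1, 71.4 and 40.2 CPM with siBDNF. The siNTRK2 libraries were above all others, and the siBDNF libraries below every proliferating one.

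Against siCtrl, MEG3 was higher with siNTRK2 by a log2 fold change of 0.79 (SE 0.14, edgeR adjusted p = 1.58e-04) and differed from siBDNF by 1.17 (SE 0.14, edgeR adjusted p = 1.16e-06). It was also higher with siNTRK2 than in proliferating cells, by 0.55 (edgeR adjusted p = 0.00157), and lower with siBDNF than in proliferating cells, at -0.62 (edgeR adjusted p = 5.02e-04). The siCtrl level lay between, and differed from neither proliferating cells (-0.25, 95% interval from -0.53 to 0.04) nor siBDNF (-0.37, edgeR adjusted p = 0.0623) by a called amount. Both of these passed under some settings. The first was called without siCtrl replicate 2 (-0.40, 0.025) or both replicates 2 (-0.40, 0.0162), with no filter (4.96e-06), with only the groups compared (0.0248) and with the length and GC offset (0.04). The second was called without siCtrl replicate 3 (-0.50, 0.0259), siBDNF replicate 1 (-0.52, 0.0184) or siBDNF replicate 2 (-0.50, 0.0339), with a replicate block (-0.39, 0.0176), with no filter (1.21e-09) and with the offset (0.00617). As for MALAT1, the p-values with no filter are not comparable with the others.

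Of the 5 other genes of the cluster that were tested, MEG9 was the 1 called between senescent groups. MEG9, a noncoding RNA downstream of MEG3, was higher with siNTRK2 than siCtrl by 0.52 (edgeR adjusted p = 0.033), lower with siBDNF, at -0.52 (edgeR adjusted p = 0.0461) and differed between the siRNAs by 1.04 (SE 0.18, edgeR adjusted p = 1.69e-04). It had 3.96, 3.37 and 5.14 CPM with siNTRK2, 2.44, 3.64 and 2.63 with siCtrl and 2.29, 2.28 and 1.59 with siBDNF. Of 5 cluster genes tested beside MEG3, 3 were higher in senescence: MEG8 by 0.62, RTL1 by 1.94 and DIO3, whose counts were 0, 0 and 1 in proliferating and 17, 3 and 13 in senescent siCtrl libraries. DLK1, the protein-coding gene 41186 bases upstream, was called in none of the 4 comparisons.

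An antisense lncRNA inside MEG3, ENSG00000258663, followed it closely, with 6.0, 5.97 and 5.9 CPM under siNTRK2, 3.24, 3.96 and 2.18 with siCtrl and 3.05, 2.81 and 1.48 with siBDNF (siNTRK2 over siBDNF 1.32, edgeR adjusted p = 2.2e-05). The library kit keeps strand, but whether the counting used it is not stated, so reads of the 2 genes may not be separable. The same holds for MIR31HG and the pseudogene IFNWP19, on the opposite strand within it, which rose in senescence by 1.62 (edgeR adjusted p = 1.71e-12). GAS5 overlaps ZBTB37, and MIR22HG overlaps WDR81, both on the opposite strand.

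PVT1 lies on chromosome 8 downstream of MYC, whose protein it is known to stabilise. It had 5.78, 6.24 and 5.49 CPM in proliferating cells, 9.01, 9.13 and 7.72 with siCtrl, 9.68, 9.8 and 9.42 with siNTRK2 and 9.46, 9.1 and 7.81 with siBDNF. All senescent libraries were above all proliferating ones. The log2 fold change was 0.56 (SE 0.10, edgeR adjusted p = 3.72e-05), while MYC fell by 0.39 (SE 0.060, edgeR adjusted p = 5.71e-06). Neither siRNA was called (0.16 with a 95% interval from -0.04 to 0.36 for siNTRK2, although its libraries did not overlap with siCtrl, and 0.02 from -0.18 to 0.22 for siBDNF).

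GAS5, a host of small nucleolar RNAs whose spliced RNA accumulates when growth or translation stops, had the smallest senescence difference of the 10. It had 104.0, 101.0 and 98.0 CPM in proliferating cells, 96.4, 92.8 and 105.0 with siCtrl, 80.7, 98.9 and 90.3 with siNTRK2 and 94.1, 91.1 and 95 with siBDNF. The senescence difference was -0.04 with a 95% interval from -0.17 to 0.08, and an offset for gene length and GC content turned it to 0.16 (edgeR adjusted p = 0.0106). Of the 6 pairs of groups only siNTRK2 against proliferating cells was called (-0.17, edgeR adjusted p = 0.0201). The siNTRK2 difference from siCtrl (-0.13, edgeR adjusted p = 0.145) was called without siNTRK2 replicate 2 (-0.20, 0.0167) or both replicates 2 (-0.24, 0.00395), and with the offset (-0.19, 0.00987).

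Of 24 other small nucleolar RNA host genes tested, 9 were higher and 6 lower in senescence, against 29.8% and 28.3% of all genes. Their median was 0.06. SNHG3 fell by 1.34, SNHG9 rose by 1.20 and SNHG1 fell by 0.73. With siNTRK2 1 was higher and 9 lower, SNHG19 at -0.82, SNHG18 at -0.36 and EPB41L4A-AS1 at -0.33. With siBDNF 0 were higher and 9 lower, SNHG19 at -0.72, SNHG32 at -0.46 and SNHG18 at -0.43. Both counts use the same siCtrl libraries. Between the siRNAs, which do not, 4 were higher with siNTRK2 and 0 lower.

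**Figure D3:**
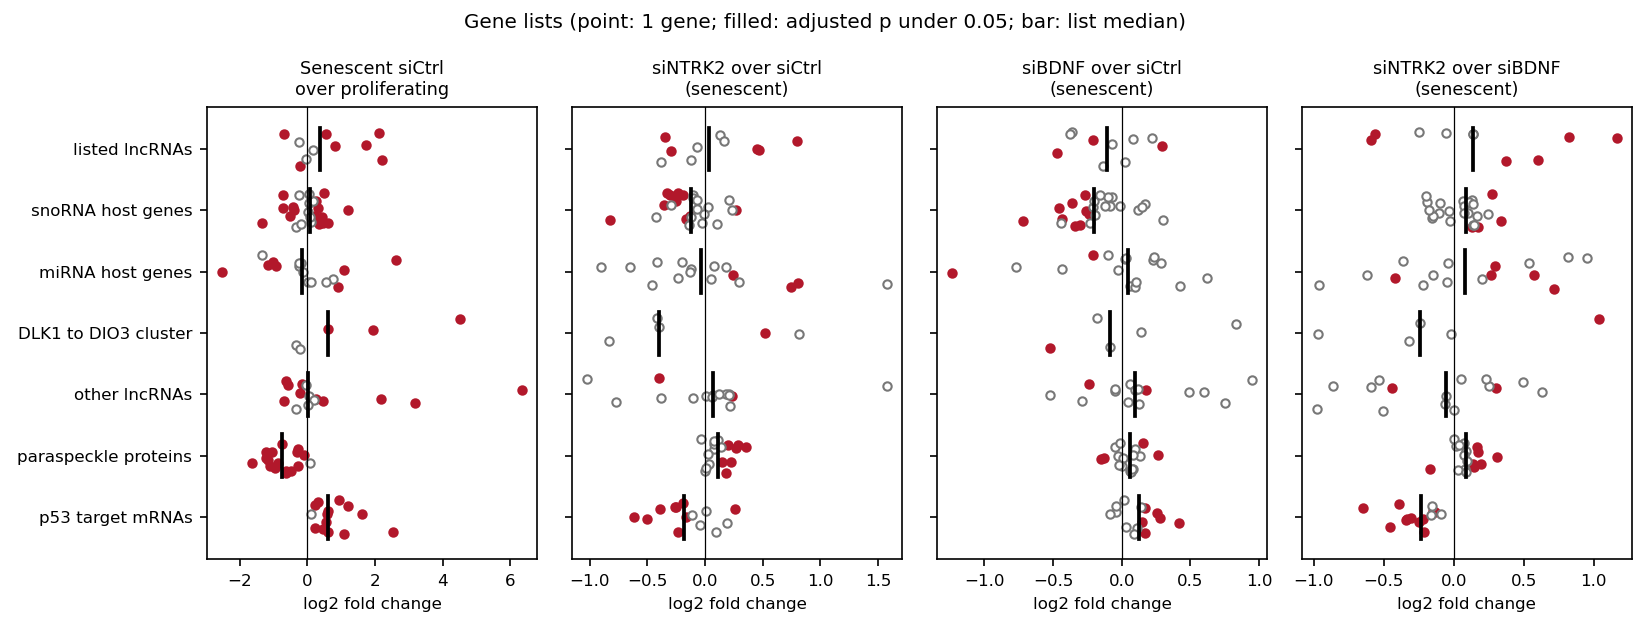
Log2 fold changes of the 10 lncRNAs and of 6 lists of related genes (points, 1 gene each, filled where the adjusted p was under 0.05) with each list's median (bar), in the 4 comparisons. In senescence the paraspeckle protein mRNAs lie to the left (median -0.76) and the p53 target mRNAs to the right (median 0.60), and the listed lncRNAs spread to both sides.

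Within groups, NEAT1, MALAT1 and MEG3 shared their lowest library. In each of the 4 groups the 3 RNAs were lowest in the same library: replicate 3 of the proliferating, senescent siCtrl and siBDNF groups and replicate 2 of the siNTRK2 group. In the siNTRK2 group NEAT1 was nearly level, at 66.8 to 70.1 CPM, so its rank there says little. In siBDNF replicate 3 they were below their group means, at log2 values of -0.58, -0.45 and -0.63. Their order in the other libraries was not always shared: in siBDNF replicate 1 NEAT1 and MEG3 were 0.27 above their group means and MALAT1 0.01. Proliferating replicate 3 was the lowest library of its group for 9 of the 10 RNAs. That library also lay farthest from the others of its group over all genes. PVT1 was lowest in replicate 3 of all 4 groups and MIR22HG in replicate 3 of the proliferating, siCtrl and siBDNF groups. The share of all genes that were lowest in these libraries was not measured, so the counts have no background to be read against. The coefficient of variation within a group reached 29.0% for NEAT1, 27.2% for MALAT1 and 30.8% for MEG3, 35.3% for PURPL, which had few counts, and 16.4% for MIR31HG, against at most 7.2% for TP53TG1, 8.2% for LINC-PINT, 9.8% for PVT1, 10.1% for GAS5 and 10.2% for MIR22HG. The share of counts from other lncRNAs was 3.07% to 3.30% in every library, and the source of the within-group spread was not tested.

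**Figure D4:**
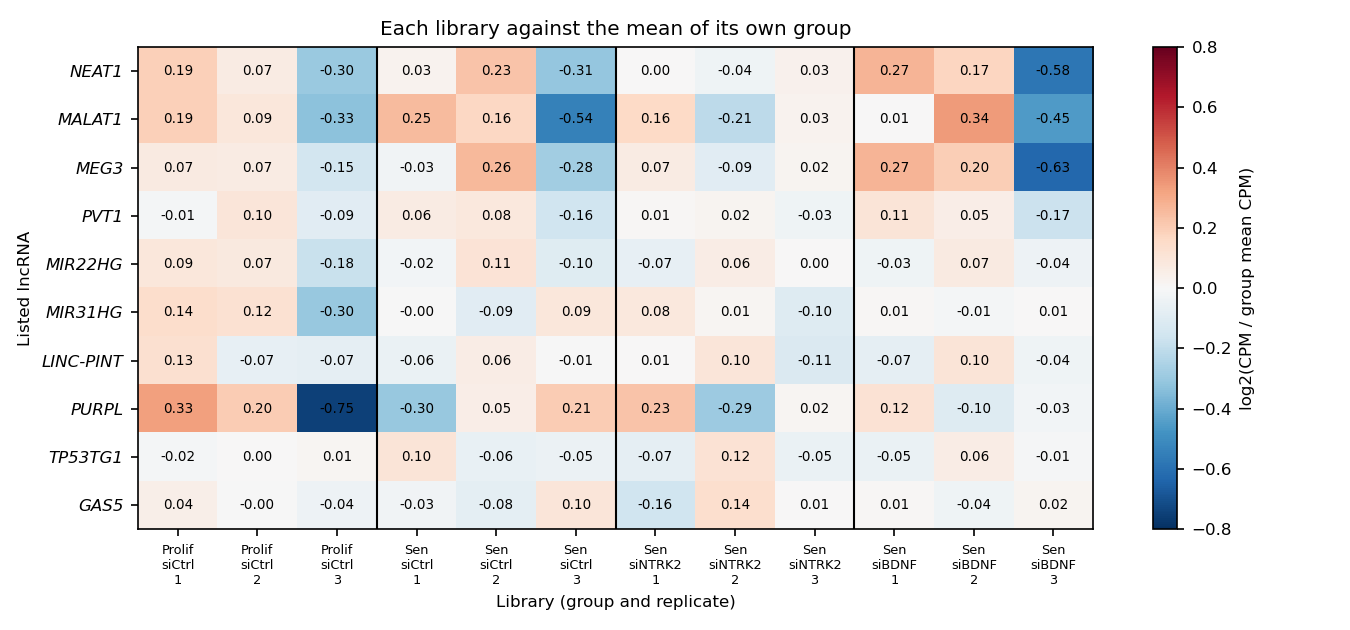
Each lncRNA (rows) in each library (columns, in groups of 3) as log2 of its CPM over its group's mean CPM. Within each group NEAT1, MALAT1 and MEG3 are lowest (bluest) in the same library, from -0.04 for NEAT1 in siNTRK2 replicate 2 down to -0.63 for MEG3 in siBDNF replicate 3.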

How the data were processed

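RNA of 12 WI-38 libraries, 3 in each of 4 groups named by the sample labels, was analysed. The deposited values are raw counts per Ensembl gene. The authors removed adapters (Cutadapt), aligned reads to hg19 (STAR 2.4.0j) and counted them (featureCounts 1.6.4); whether strand was used is not given in the sources used here. No column of other samples was used. Counts were compared with edgeR 4.0.16 in R 4.3.3: TMM normalization, filterByExpr over the 4 groups and a quasi-likelihood fit of all 12 libraries with 1 term per group. Benjamini-Hochberg adjustment ran over all 21518 genes tested. A gene was called at an adjusted p under 0.05. CPM are TMM-normalized counts per 1000000, log2 fold changes have edgeR standard errors, and limma 3.58.1 was loaded by edgeR. At the depths sequenced, 3 counts corresponded to at least 0.0427 CPM; reads carry no molecular identifiers, so this covers counting error only, and replicate spread exceeded it. The method was tested on simulated data for senescent against proliferating siCtrl libraries (20927 genes, 200 changed): of 50 genes each changed by log2 0.25, 0.5, 1 and 2 it called 12, 38, 34 and 44, with 7 false calls.

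Listed genes were matched by symbol, and 8 of the 10 had a RefSeq promoter that was used. All 10 members are named with every library, as are the targeted genes, the nearest and overlapping genes, the 3 genes most alike over the libraries, and up to 3 genes per list with the largest called change; a few genes named by these rules are not reported here. The members, lists and rules were chosen with earlier results of these data known. Gene positions are from GENCODE on GRCh37, a later annotation than that of the counts, and levels are not compared between genes. Replicates differed by more than sampling noise (chi-square per gene 3.92 to 13.6). The alternatives were other scaling, other filters, DESeq2 1.42.0, a replicate block, a fit of only the groups compared, a fold cutoff and leaving out each library. A length and GC offset and leaving out both siCtrl and siNTRK2 replicates 2 were added after the data had been seen.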

Additional observations from a re-analysis of the deposited data

Results flagged for a closer look

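The effects of the siRNAs in senescent cells differed from each other for 6 of the 10 RNAs, by the test of siNTRK2 against siBDNF itself (edgeR). Over all genes tested, 16.7% passed this test. The list was chosen with earlier results of these data known, so the count of 6 is not a test of the list. The difference in log2 fold change was 1.17 for MEG3, 0.83 for MALAT1 (0.825), 0.60 for NEAT1, 0.37 for MIR22HG, -0.57 for LINC-PINT and -0.59 for MIR31HG. All 6 were called in each fit that left out 1 library of either group.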

How the results depend on the processing

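Of 596 alternative values for the 10 RNAs, 535 kept their direction and side of the threshold, 31 lost a call, 22 gained one and 8 changed sign, and 23 of 40 results never changed. Requiring a log2 fold change over 1 left 3 of the RNAs (3604 genes in all) in senescence, 0 (206) with siNTRK2, 0 (131) with siBDNF and 1 (250) between the siRNAs. Leaving out 1 library at a time, 7 RNAs were called in each fit in senescence and 6 between the siRNAs. The 7 were not always the same: without siCtrl replicate 2 TP53TG1 was lost and MEG3 gained, and without siCtrl replicate 3 TP53TG1 was lost and MALAT1 gained. The counts were 3 to 6 with siNTRK2 (3 without siCtrl replicate 3 or siNTRK2 replicate 3) and 0 to 4 with siBDNF (0 without siCtrl replicate 1 or siBDNF replicate 3, 1 without siCtrl replicate 2). Over all genes the counts ranged from 2961 (without siCtrl replicate 1) to 4822 with siNTRK2 and from 2287 (without siBDNF replicate 3) to 3269 between the siRNAs. With siBDNF, leaving out both replicates 2 gave 1 RNA and the length and GC offset gave 5. That offset turned GAS5 in senescence to 0.16, NEAT1 with siNTRK2 to -0.01 (-0.015) and PVT1 with siBDNF to -0.10 (-0.105). When 1 library was left out, NEAT1 with siNTRK2 ranged from -0.002 to 0.261, PVT1 with siBDNF from -0.053 to 0.104 and GAS5 between the siRNAs from -0.128 to 0.018. The cause of these changes was not tested. With a filter of 10 counts in every library PURPL was not tested.

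Whether same-numbered libraries were paired is not given by the labels. The authors state in general that the groups of an experiment were run together, but not which libraries share an experiment. Over all genes, deviations of same-numbered libraries had a mean correlation of 0.0107 (18 pairs, -0.106 to 0.11) against -0.00543 for other pairs. A correlation over all genes from 3 libraries per group cannot exclude pairing, also not for single RNAs. A replicate block gave 7, 5, 4 and 6 called RNAs in the 4 comparisons, against 7, 5, 3 and 6 without it, and 12488, 4553, 4434 and 3621 genes in all. No scaling moved the median of all genes by more than 0.057 on the log2 scale. Depth limits PURPL, with 6 to 22 counts in proliferating libraries.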

Other observations

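Among other lncRNAs linked to stress, growth or senescence, 15 could be tested. In senescence 5 were higher and 5 lower (median log2 fold change 0.00, 0.005), against 29.8% and 28.3% of all genes. PINCR, a p53-induced RNA, had 1, 0 and 0 counts in proliferating libraries, 36, 50 and 31 in senescent siCtrl, 16, 45 and 23 with siNTRK2 and 32, 71 and 73 with siBDNF. H19, an imprinted RNA, had 0, 6 and 1 counts in proliferating and 26, 31 and 11 in senescent siCtrl libraries. LUCAT1, a stress-responsive RNA, rose by 2.18 (SE 0.37, edgeR adjusted p = 1.68e-05). In each of the 3 siRNA comparisons among senescent cells, 1 of the 15 was higher and 1 lower. TUG1 was higher with siNTRK2 (0.23) and with siBDNF (0.18), comparisons that share siCtrl libraries. HOTAIRM1 was lower with siNTRK2 than with siBDNF (-0.44, edgeR adjusted p = 0.0224), and CYTOR higher (0.31, edgeR adjusted p = 0.00229).

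Protein-coding neighbours moved in part. FRMD8, 9249 bases from NEAT1, rose in senescence by 0.61 but was lower with siNTRK2 than with siBDNF, at -0.55 (edgeR adjusted p = 2.41e-07), where NEAT1 and MALAT1 were higher. PODXL, 390086 bases from LINC-PINT, rose by 1.09 in senescence and was also higher with siNTRK2 (0.54, edgeR adjusted p = 9.72e-05) and with siBDNF (0.82, edgeR adjusted p = 3.33e-07) than with siCtrl, where LINC-PINT was lower with siNTRK2. CROT, which starts 104 bases from TP53TG1 on the opposite strand, was called in none of the 4 comparisons.

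Across the 12 libraries, the gene most like each RNA in log2 CPM by Pearson's r was NDFIP1 for PURPL (0.982), MT1L for LINC-PINT (0.995), HERPUD2-AS1 for TP53TG1 (0.967), IFNWP19 for MIR31HG (0.992), NEDD4 for MIR22HG (0.99), STAG3L1 for NEAT1 (0.924), STAG3L5P-PVRIG2P-PILRB for MALAT1 (0.929), ENSG00000258663 for MEG3 (0.985), PPFIA1 for PVT1 (0.975) and RPS27P3 for GAS5 (0.967). Libraries of a group share their treatment, so these values follow the group differences as well as the spread within groups, and each was chosen as the highest of all genes tested.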
